A study of Homo sapiens with 6 samples.

Results

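Transcripts of 32 genes for protein folding and degradation in the endoplasmic reticulum (ER) were compared between parental and drug-tolerant lung cancer cells. The genes were taken by symbol from a published table of 36459 gene symbols, and all 32 were found there. They comprised 9 chaperones and cofactors, 2 lectin chaperones, 7 disulfide isomerases and oxidases, 10 genes of ER-associated degradation (ERAD), the sensors ERN1 and ATF6 with the transcription factor XBP1, and the translocon subunit SEC61B. The cells were PC9, a line from a human lung adenocarcinoma that depends on the epidermal growth factor receptor EGFR. Parental PC9 cells, without drug, were set against persister cells, the PC9 cells left after 6 days of erlotinib at 15 µM, a drug that blocks the kinase of EGFR. Each group had 3 RNA-seq libraries. The parental libraries came from 3 independent cultures and the persister libraries from 9 cultures that were pooled, so the spread between persister libraries is one between pools. All 6 libraries come from 1 cell line, with a single dose and a single time.

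Proteins entering the secretory pathway are folded in the ER by chaperones, by lectins that read their sugar chains and by enzymes that form disulfide bonds. Proteins that fail to fold are drawn back into the cytosol through ERAD, ubiquitylated and destroyed by the proteasome. When unfolded proteins accumulate, membrane sensors start the unfolded protein response (UPR): IRE1, encoded by ERN1, splices XBP1 mRNA in the cytosol, ATF6 is cut and its fragment enters the nucleus, and PERK, encoded by EIF2AK3, phosphorylates eIF2α and so raises translation of ATF4. In a UPR that runs through IRE1 and ATF6, the genes for ER chaperones and ERAD are classical targets, whereas ATF4 output can also be raised by other kinases of eIF2α. The question put to the data was therefore whether the ER folding and degradation genes rose as a group in persister cells, or some of them apart from others.

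The libraries held 29476725 to 34893782 gene counts. Mitochondrially encoded genes took 1.90% to 3.37% of the counts in parental and 3.39% to 3.96% in persister libraries. DUSP6, a direct readout of EGFR and ERK signalling, stood at 19.1, 20.9 and 20.1 CPM, counts scaled to a common library size, in parental and at 1.58, 1.37 and 1.73 CPM in persister libraries, and 11 of 14 ERK output genes were lower in persister cells. For scale, 56.8% of all genes tested were called at an adjusted p under 0.01, 28.7% higher and 28.1% lower in persister cells. All 9 tested epithelial markers were called, 6 lower in persister cells, among them KRT8 (log2 fold change -0.80), KRT18 (-0.92) and KRT19 (-1.03), and 3 higher, among them KRT7 (0.46) and CDH1 (0.60). Keratins were high in both groups (KRT8 at 2166 to 2487 CPM in parental and 1285 to 1388 CPM in persister libraries), whereas the lung lineage factor NKX2-1 was at or near 0 in all 6 libraries. Of other cell types, CD3E, NKG7, COL3A1 and CLDN5 were at 0 in every library and PTPRC was at most 0.356 CPM. The summed level of the 8 immune markers was 75.7 to 77.6 CPM in parental and 23.9 to 27.5 CPM in persister libraries, most of it from CD68 (74.8 and 21.1 CPM on average), whereas CSF1R was higher in persister cells (0.4604 and 4.58 CPM). Fibroblast markers (8 genes) summed to 10.6 to 11.2 and 27.5 to 31.1 CPM, almost all from COL1A1, and endothelial markers (6 genes) to 8.28 to 9.0 and 3.73 to 4.27 CPM. Of 8 proliferation genes, 6 were higher in persister cells. The part of these differences in the results below was not tested.

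Of the 32 genes, 31 passed the filter on low counts and were tested with edgeR's quasi-likelihood test, and 21 passed the limit of an adjusted p under 0.01, 17 of them higher and 4 lower in persister cells. Over all 14626 genes tested, 56.8% were called, 28.7% higher and 28.1% lower. Among the 31 tested ER genes, the corresponding shares were 67.7%, 54.8% and 12.9%. The changes were small: the median log2 fold change of the ER genes was 0.20, beside -0.0061 for all genes tested, and their median absolute log2 fold change was 0.27, beside 0.33 for all genes. None of the 31 lay above the 95th percentile of all genes (a log2 fold change of 1.12), 1 (DERL3) lay below the 5th (-1.14), and 16 lay between the 25th and the 75th percentile (-0.35 and 0.30). The 2 groups did not overlap for 23 of the ER genes, and for 71.3% of all genes tested. Summed over the 32 genes, the level was 5229, 5133 and 5156 CPM in parental and 6032, 6192 and 6056 CPM in persister libraries, or 0.526% to 0.529% and 0.593% to 0.603% of all gene counts. In bulk libraries, fewer cells expressing a gene and less RNA per cell cannot be told apart.

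**Figure D1:**
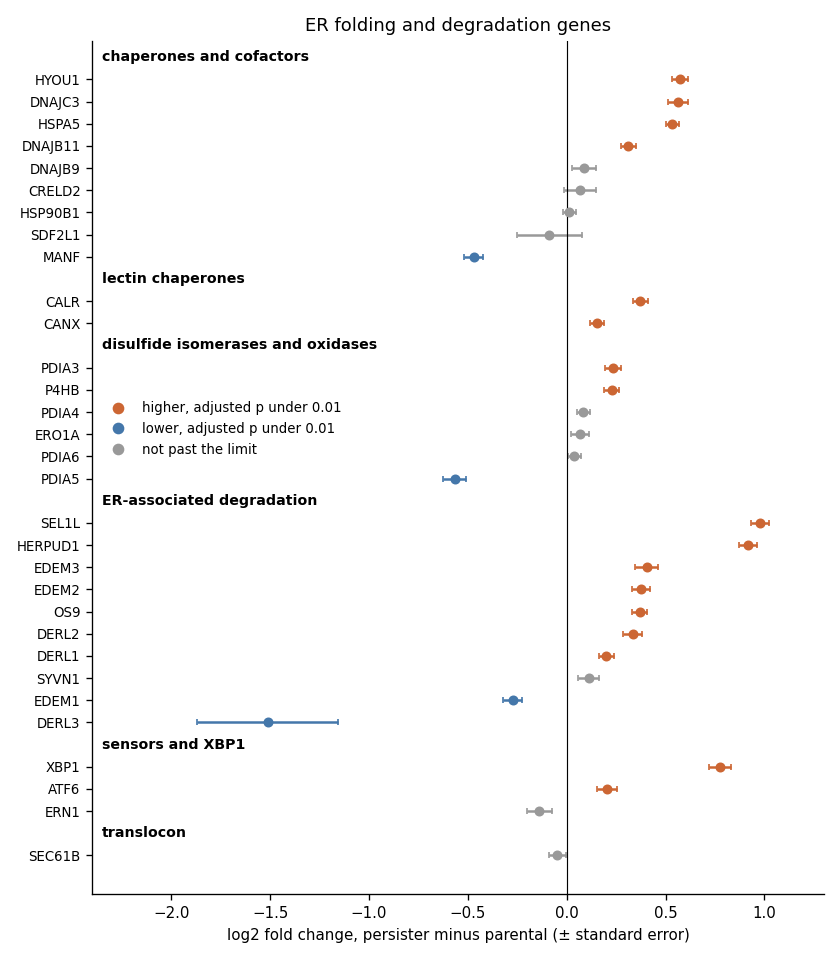
Log2 fold change of each of the 31 tested ER genes, persister minus parental, with its standard error from edgeR, grouped by role (3 libraries per group; orange, higher; blue, lower; grey, adjusted p of 0.01 or more). SEL1L, HERPUD1 and XBP1 stand farthest to the right, at 0.98, 0.92 and 0.77. The genes called lower, MANF, PDIA5, EDEM1 and DERL3, lie left of 0, as do ERN1, SDF2L1 and SEC61B, which were not called.

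Each role is given by its counts, and differences between roles were not tested. Of the 10 ERAD genes, 7 were higher and 2 lower (median log2 fold change 0.35). Of the 9 chaperones and cofactors, 4 were higher and 1 lower (median 0.09), both lectin chaperones were higher (median 0.26), and of 6 tested isomerases and oxidases 2 were higher and 1 lower (median 0.08). Of the sensors and XBP1, 2 of 3 were higher. In either direction, 90% of the ERAD genes, 55.6% of the chaperones and cofactors and 50% of the isomerases and oxidases were called. Over all genes tested 56.8% were called, 28.7% higher and 28.1% lower, with a median of -0.0061. Of the 17 higher genes, 11 had a log2 fold change of 0.5 or less, and the largest ratio of group means was 1.97.

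The ATF6 and XBP1 arms of the UPR act on short promoter elements, so the promoters of the ER genes were read beside their changes. RefSeq windows of 250 bases before to 50 after a transcription start (GRCh38.p14) were at hand for 29 of the 32 genes. The ER stress response element ERSE, CCAAT and CCACG with any 9 bases between them, was searched on both strands, as was ERSE-II, ATTGG and CCACG with any 1 base between them. ERSE was in 27 of 35116 windows of all genes (0.0769%), and 10 of these 27 belonged to 8 of the ER genes, CALR, CANX, CRELD2, ERO1B, HSP90B1, HSPA5, PDIA6 and XBP1. The 3 windows of CANX that hold ERSE overlap and share 1 element. ERSE-II was in 0.0541% of all windows and in those of HERPUD1, HYOU1 and SDF2L1. These counts are a description, and no test of enrichment was run. A CCAAT box, the letters CCAAT, is contained in every ERSE and, on the opposite strand, in the ERSE-II of these 3 genes, and it was found in 24 of the 29 genes and in 34.6% of all windows. The 250 bases before the start follow for 3 genes that were higher in persister cells and for HSP90B1 and SDF2L1, which were not called and carry elements of the same kinds. Each runs 5′ to 3′ along the gene's strand, with ERSE or ERSE-II in capitals and, in HERPUD1, also an amino acid response element (CARE, spelled TGATGNAAN), the kind of site that ATF4 binds.
HSPA5, chr9:125241344-125241593, minus strand: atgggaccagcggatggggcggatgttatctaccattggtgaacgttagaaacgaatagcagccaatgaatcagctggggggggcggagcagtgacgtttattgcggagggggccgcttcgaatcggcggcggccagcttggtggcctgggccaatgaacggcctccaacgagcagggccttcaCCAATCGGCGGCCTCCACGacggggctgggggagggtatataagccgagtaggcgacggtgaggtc
HYOU1, chr11:119057206-119057455, minus strand: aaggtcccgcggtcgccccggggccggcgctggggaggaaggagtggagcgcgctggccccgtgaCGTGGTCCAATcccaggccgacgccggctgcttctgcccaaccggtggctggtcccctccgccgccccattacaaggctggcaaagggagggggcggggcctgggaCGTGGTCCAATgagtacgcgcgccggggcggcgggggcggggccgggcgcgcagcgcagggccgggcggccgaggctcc
HERPUD1, chr16:56931892-56932141, plus strand: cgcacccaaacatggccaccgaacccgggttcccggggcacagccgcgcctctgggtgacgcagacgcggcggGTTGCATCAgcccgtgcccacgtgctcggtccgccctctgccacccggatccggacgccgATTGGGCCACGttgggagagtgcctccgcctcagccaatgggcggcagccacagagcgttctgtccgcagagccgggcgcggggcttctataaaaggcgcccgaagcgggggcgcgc
HSP90B1, chr12:103930160-103930409, plus strand: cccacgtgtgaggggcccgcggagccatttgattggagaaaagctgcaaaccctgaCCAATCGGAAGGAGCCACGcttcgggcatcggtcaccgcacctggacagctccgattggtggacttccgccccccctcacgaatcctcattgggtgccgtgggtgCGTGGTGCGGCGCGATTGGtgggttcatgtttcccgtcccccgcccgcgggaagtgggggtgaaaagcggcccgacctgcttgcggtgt
SDF2L1, chr22:21642052-21642301, plus strand: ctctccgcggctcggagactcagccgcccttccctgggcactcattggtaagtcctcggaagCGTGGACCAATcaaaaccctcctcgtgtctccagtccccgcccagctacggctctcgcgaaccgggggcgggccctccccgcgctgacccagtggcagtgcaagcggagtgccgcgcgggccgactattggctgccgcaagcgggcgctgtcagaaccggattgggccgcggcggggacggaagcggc

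HSPA5 has 1 ERSE, with its first base at -66 from the start, and HSP90B1 has 2, at -194 and -89. HYOU1 has 2 copies of ERSE-II, at -185 and -79, of which the first overlaps the UPR element core TGACGTGG (0.729% of all windows). HERPUD1 has 1 ERSE-II at -117 and, alone among the 29, a CARE at -177 (3.61% of all windows). Of the 11 genes with ERSE or ERSE-II, 10 were tested: 6 were higher, 0 lower and 4 not called, with a median log2 fold change of 0.26. Of the 18 genes with neither element in the window, 9 were higher, 3 lower and 6 not called, with a median of 0.16. SEL1L, which had the largest increase of all the ER genes, and DNAJC3 were among the 18. For scale, 54.8% of all tested ER genes were higher and 12.9% lower, with a median of 0.20. Over all genes tested these shares were 28.7% and 28.1%, with a median of -0.0061. A match is a match of letters only, and the difference between the 2 sets was not tested.

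Of the chaperones and cofactors, HSPA5, HYOU1, DNAJC3 and DNAJB11 were higher in persister cells. HSPA5 (gene at chr9:125234853-125241382 of GRCh38 in GENCODE 44) encodes BiP, the main HSP70 of the ER lumen, which binds unfolded chains and holds the stress sensors inactive. It stood at 500.0, 493 and 483 CPM in parental and at 707, 730 and 701 CPM in persister libraries. All 3 persister libraries lay above all 3 parental ones, and the log2 fold change was 0.53 (standard error, SE, 0.0337, adjusted p = 1.52e-07 in edgeR). HYOU1 (chr11:119044188-119057227) encodes GRP170, a large HSP70 relative that exchanges the nucleotide of BiP. Its level was 142, 154 and 149 CPM in parental and 214, 226 and 221 CPM in persister libraries. The groups were again apart, with a log2 fold change of 0.57 (SE 0.0416, adjusted p = 4.67e-07 in edgeR). DNAJC3 (chr13:95677139-95794988) encodes p58IPK, a J-domain cochaperone of BiP. It rose from 23.5, 22.6 and 23.9 CPM to 36.3, 33.2 and 33.9 CPM, a log2 fold change of 0.56 (SE 0.0524, adjusted p = 3.40e-06 in edgeR). DNAJB11 (ERdj3), which hands unfolded chains to BiP, rose less, from 87.7, 91.2 and 92.0 CPM to 112, 113 and 111 CPM (log2 fold change 0.31, edgeR adjusted p = 2.54e-05).

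Other chaperone genes that are classical UPR targets were not called. HSP90B1, the HSP90 of the ER (GRP94), stood at 607, 575 and 591 CPM in parental and at 604, 597 and 589 CPM in persister libraries. The groups overlapped, the log2 fold change was 0.014 (SE 0.0342, adjusted p = 0.736 in edgeR), and its sign turned when counts were scaled by library size only (-0.039). DNAJB9 (ERdj4), a J-domain protein that returns BiP to IRE1 and is a well-known target of spliced XBP1, was at 23.9, 22.0 and 20.6 CPM in parental and at 23.8, 23.2 and 23.6 CPM in persister libraries, again with overlap (log2 fold change 0.09, edgeR adjusted p = 0.234). CRELD2 and SDF2L1, a stress-induced secretory factor and a partner of the J-domain proteins, had log2 fold changes of 0.07 and -0.09 (edgeR adjusted p = 0.481 and 0.647), and the sign turned without persister replicate 3 for CRELD2 and without parental replicate 2 for SDF2L1. SDF2L1 was thinly covered, at 3.54 to 5.49 CPM over the 6 libraries.

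MANF went the other way. It encodes a small ER protein that binds BiP and is secreted when ER calcium falls, and it is a strong marker of the UPR in many cell types. Its level was 47.4, 49.7 and 49.7 CPM in parental and 34.98, 36.6 and 34.3 CPM in persister libraries. Every persister library lay below every parental one, and the log2 fold change was -0.47 (SE 0.0463, adjusted p = 5.13e-06 in edgeR).

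**Figure D2:**
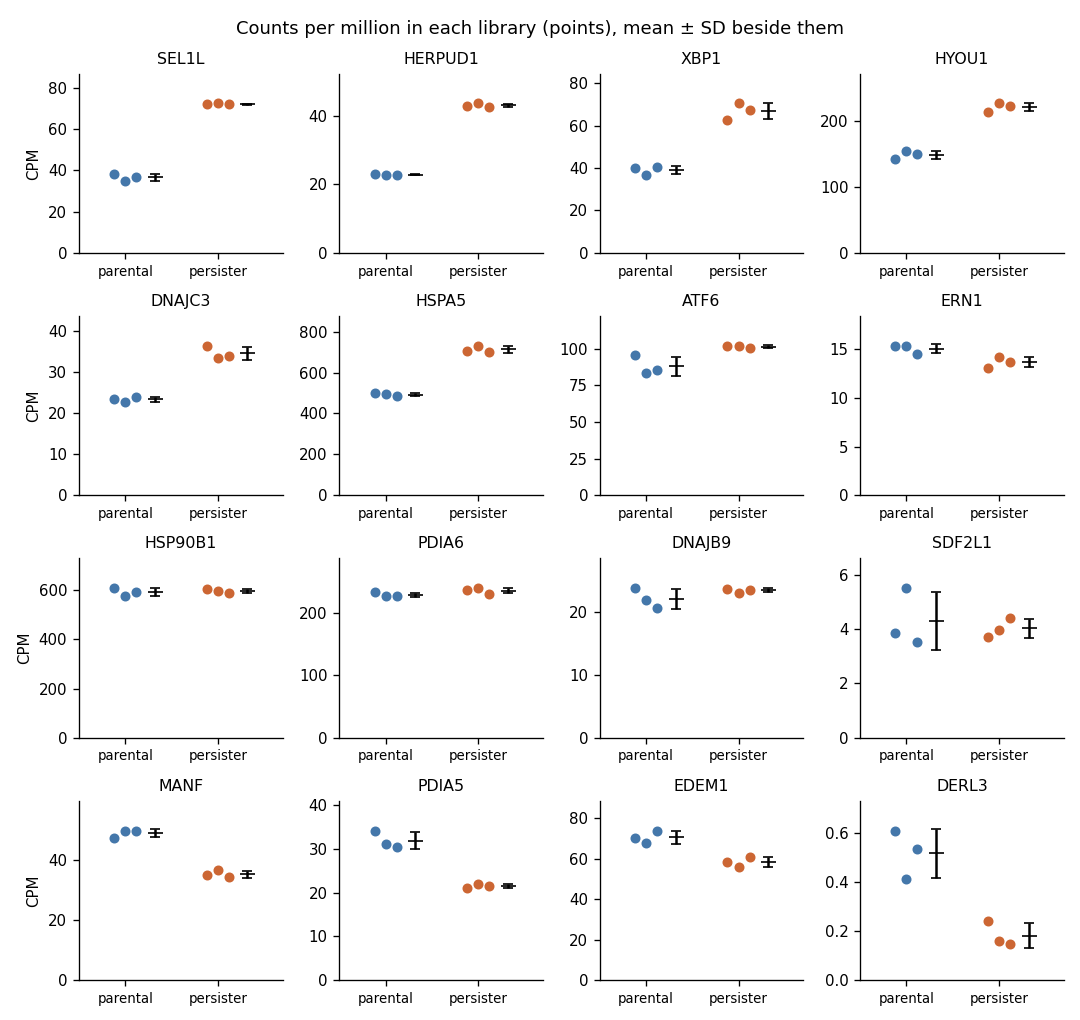
CPM of 16 ER genes in each library (points; parental blue, persister orange), with the mean and SD of 3 libraries beside them; each y axis starts at 0. The top rows hold genes whose groups are apart, such as SEL1L and HSPA5, the third row holds 4 genes whose groups overlap, and the bottom row the 4 genes that were lower in persister cells.

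The lectin chaperones hold glycoproteins in the folding cycle. Calreticulin, CALR, the soluble form, rose from 515, 531 and 520 CPM to 648, 703 and 676 CPM (log2 fold change 0.37, edgeR adjusted p = 7.04e-06). Its membrane-bound relative calnexin, CANX, was at 913, 863 and 882 CPM in parental and at 1001, 985 and 969 CPM in persister libraries. The groups did not overlap, but the step was small (log2 fold change 0.15, SE 0.0347, adjusted p = 0.00249 in edgeR). The call for CANX was lost when parental replicate 3 or persister replicate 2 was left out (edgeR adjusted p = 0.017 and 0.011) and when counts were scaled by library size only (0.0224).

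Disulfide isomerases moved apart from one another. P4HB, the classical protein disulfide isomerase, and PDIA3 (ERp57), which works with the lectin chaperones, rose slightly, from 499 ± 12.1 to 584 ± 22.8 CPM and from 456 ± 19.1 to 536 ± 16.6 CPM (SD, n = 3). Their log2 fold changes were both 0.23 (edgeR adjusted p = 0.000342 for P4HB and 0.000394 for PDIA3). PDIA4, PDIA6 and the oxidase ERO1A, which passes electrons from the isomerases to oxygen, had log2 fold changes of 0.08, 0.04 and 0.07 and did not pass the limit of 0.01 (edgeR adjusted p = 0.0439, 0.336 and 0.218), and the sign of PDIA6 turned with scaling by library size only. The groups of PDIA4 did not overlap (222 to 227 CPM in parental, 236 to 243 CPM in persister libraries), and those of PDIA6 and ERO1A did. The second oxidase gene, ERO1B, had 4, 2 and 4 counts in parental and 2, 5 and 0 counts in persister libraries, too few to test.

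PDIA5 (chr3:123067025-123225227), a less abundant isomerase that has been linked to activation of ATF6, fell. It stood at 34.1, 31.1 and 30.3 CPM in parental and at 21.1, 21.9 and 21.6 CPM in persister libraries. All persister values lay below all parental ones, with a log2 fold change of -0.57 (SE 0.0572, adjusted p = 6.41e-06 in edgeR).

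Of the 10 ERAD genes, SEL1L and HERPUD1 had the largest increases. SEL1L (chr14:81471547-81533853) is the adaptor that holds the ubiquitin ligase HRD1 stable and links it to the lumenal lectins. It stood at 38.2, 34.8 and 36.9 CPM in parental and at 72.0, 72.4 and 72.0 CPM in persister libraries. The persister libraries were nearly equal and far above the parental ones, with a log2 fold change of 0.98 (SE 0.0452, adjusted p = 1.40e-08 in edgeR). HERPUD1 (chr16:56932142-56944864) encodes HERP, a short-lived membrane protein that assembles the HRD1 complex. It was at 22.9, 22.9 and 22.7 CPM in parental and at 43.0, 43.7 and 42.6 CPM in persister libraries. The SD was 0.120 CPM in parental and 0.531 CPM in persister libraries, and the log2 fold change was 0.92 (SE 0.0440, adjusted p = 1.90e-08 in edgeR). SYVN1, the gene of HRD1 itself, was at 54.8, 59.9 and 53.3 CPM in parental and at 57.5, 60.7 and 63.0 CPM in persister libraries. These groups overlapped, and the log2 fold change was 0.11 (SE 0.0544, adjusted p = 0.095 in edgeR).

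The other ERAD genes that rose did so by less. OS9, a lectin that brings glycoproteins to SEL1L, rose from 108 ± 3.95 to 139 ± 1.98 CPM (SD, n = 3; log2 fold change 0.37, edgeR adjusted p = 9.77e-06). The EDEM genes encode proteins that promote mannose trimming of misfolded glycoproteins, and they split. EDEM2 and EDEM3 rose, with log2 fold changes of 0.37 and 0.40 (edgeR adjusted p = 2.89e-05 and 0.000117). EDEM1, the family member best known as a target of spliced XBP1, was at 70.2, 67.7 and 73.8 CPM in parental and at 58.4, 56.1 and 60.8 CPM in persister libraries. It was lower in every persister library (log2 fold change -0.27, SE 0.0481, adjusted p = 0.000447 in edgeR). Derlins, rhomboid-like membrane proteins of the retrotranslocation site, split as well. DERL1 and DERL2 rose by 0.20 and 0.33 on the log2 scale (edgeR adjusted p = 0.000668 and 0.000107). DERL3 was barely expressed, with 21, 14 and 18 counts in parental and 7, 5 and 5 counts in persister libraries, and its log2 fold change was -1.51 (SE 0.357, adjusted p = 0.00313 in edgeR). The call for DERL3 was lost without parental replicate 1 or 3 or persister replicate 2 or 3 (edgeR adjusted p between 0.0121 and 0.0177) and with DESeq2 (adjusted p = 0.0249). SEC61B, a subunit of the channel through which new chains enter the ER, was at 56.7 ± 2.50 and 54.8 ± 0.298 CPM (SD, n = 3; log2 fold change -0.05, edgeR adjusted p = 0.366).

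The sensors showed small differences in their own transcripts. ERN1, the gene of IRE1, was at 15.3, 15.3 and 14.5 CPM in parental and at 13.1, 14.2 and 13.7 CPM in persister libraries. All 3 persister values were below the parental ones, but the difference did not pass the limit (log2 fold change -0.14, SE 0.0622, adjusted p = 0.0693 in edgeR). ATF6 was at 95.5, 83.3 and 85.6 CPM in parental and at 102, 102 and 100.4 CPM in persister libraries. It was called higher (log2 fold change 0.20, SE 0.0512, adjusted p = 0.00465 in edgeR), and the call was lost when any library but parental replicate 1 was left out (edgeR adjusted p between 0.0115 and 0.0281) or counts were scaled by library size only (0.0198). Levels of sensor mRNA do not measure the activity of the sensors.

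XBP1 (chr22:28794555-28800597) encodes the transcription factor made after splicing by IRE1. Its gene count gave 39.95, 36.8 and 40.4 CPM in parental and 62.7, 70.4 and 67.2 CPM in persister libraries. The groups were well apart, with a log2 fold change of 0.77 (SE 0.0557, adjusted p = 4.33e-07 in edgeR). IRE1 removes a 26-base intron from the mRNA, which shifts the reading frame so that an active factor is made. The intron lies in a coding exon on chromosome 22 (GRCh38, chr22:28796128-28796153, minus strand), at bases 566 to 591 of transcript XBP1-201. It is shown in capitals as the annotation places it, with 40 bases of coding exon on either side, since its removal defines the spliced form. The stretch and the exon after it both begin with G. A stretch of the same length placed a base later therefore leaves the same spliced sequence.
XBP1 around the IRE1 intron: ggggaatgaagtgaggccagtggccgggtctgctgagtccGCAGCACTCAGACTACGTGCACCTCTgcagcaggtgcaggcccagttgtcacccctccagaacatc

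The deposited transcript counts divide XBP1 over XBP1-201, which keeps the intron (coding length 783 bases), and XBP1-202, which lacks it (1128 bases). XBP1-201 had 692, 646 and 577 counts in parental and 1407, 1601 and 1674 counts in persister libraries, a log2 fold change of 1.37 (SE 0.07, adjusted p = 0.000176 in edgeR over transcripts). This is larger than the change of the gene, 0.77, and the counts on unlisted transcripts given below, 309 to 414 in parental and 0 to 64 in persister libraries, are not part of it. XBP1-202, the spliced form, had 293, 274 and 263 counts in parental and 286, 520 and 504 counts in persister libraries (log2 fold change 0.73, edgeR adjusted p = 0.0636). Scaled to library size, the spliced form was at 8.57, 8.20 and 7.95 CPM in parental and at 9.75, 16.5 and 14.7 CPM in persister libraries. On these placed counts alone, all persister libraries lay above the parental ones, persister replicate 1 by the least. The spliced share of the annotated coding counts was 28.9%, 29.3% and 28.2% in parental and 16.3%, 24.0% and 22.1% in persister libraries. Each persister share was below each parental one (28.8% ± 0.581 against 20.8% ± 4.0, SD, n = 3 each; exact two-sided permutation p = 0.1, the smallest that 3 against 3 can give).

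The values of XBP1-201 and of the spliced share depend on counts that could not be placed. A part of 25%, 24.7% and 30.4% of the XBP1 gene count in the parental libraries was on no transcript of the annotation used here, against 3.50%, 0.0451% and 0% in the persister libraries. Taken as a share of the whole gene count, the spliced form was at 20.8% ± 1.34 in parental and 20.4% ± 4.16 in persister libraries (SD, n = 3), and the groups overlapped (exact permutation p = 1). The 2 transcripts share most of their sequence, so their division by Kallisto is uncertain. A test of unequal transcript change within the gene made no call for XBP1 (Simes method of diffSpliceDGE in edgeR, adjusted p = 1). The sign of this small difference turned with single libraries: persister replicate 1 was at 15.6%, persister replicates 2 and 3, at 23.5% and 22.0%, lay above every parental library (19.3% to 21.9%), and the difference of the means, persister minus parental, went from -0.487 percentage points to 1.87 without persister replicate 1 and to 0.0354 without parental replicate 2. The direction of the share is therefore not settled by these counts.

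**Figure D3:**
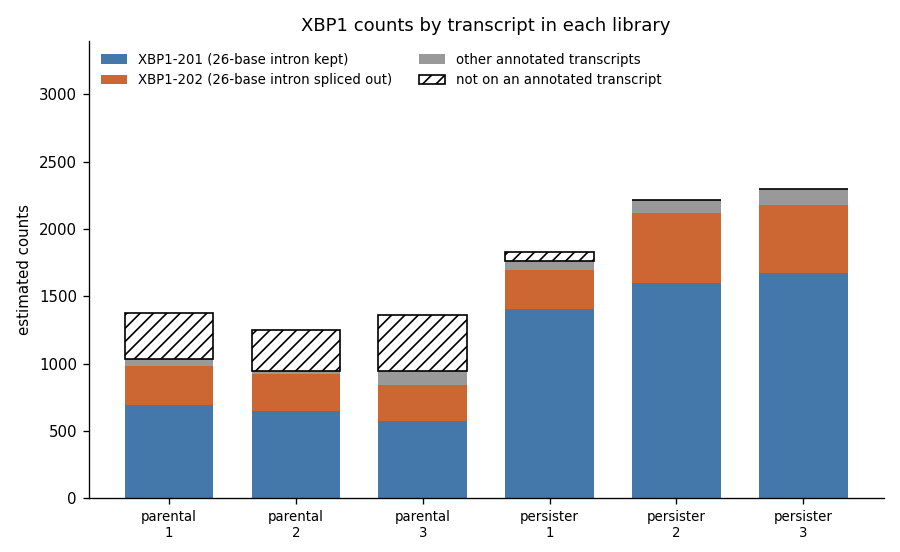
Estimated XBP1 counts in each of the 6 libraries, stacked by transcript: XBP1-201 with the 26-base intron (blue), XBP1-202 without it (orange), other annotated transcripts (grey) and counts on no annotated transcript (hatched). The bars reach 1252 to 1375 counts in parental and 1830 to 2296 counts in persister libraries, and the hatched part is 309 to 414 counts in parental and 0 to 64 counts in persister libraries.

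At the level of transcripts, 104 of 267 annotated transcripts of the ER genes were tested, of which 10 were higher and 2 lower, beside 7.80% called among all 54499 transcripts tested. The changed transcripts were coding forms of genes already named, among them HSPA5-201 (log2 fold change 0.51), SEL1L-201 (0.96), HERPUD1-201 (0.93), HYOU1-221 (0.83) and PDIA3-201 (0.54), the last a minor form with 707 to 1096 counts. The lower ones were MANF-204 (-0.45) and PDIA5-201 (-0.56). With any 1 library left out, 5 to 6 were higher and 0 to 2 lower. Of 23 genes with a test of transcript usage, PDIA5 alone was called (Simes method in edgeR, adjusted p = 0.000944), beside 1.88% of all 10542 genes tested. The call rested on PDIA5-207, a form annotated for nonsense-mediated decay, with 44, 22 and 24 counts in parental and 0, 0 and 0 counts in persister libraries. That was 2.08% to 3.74% of the gene in parental cells, and a count of 0 allows up to 0.407% to 0.487% in persister cells. Without parental replicate 1, or without any one of the persister replicates, the adjusted p of edgeR was between 0.0192 and 0.0261, and the call was lost. HYOU1, CANX and DERL3 also had a large part of their gene count on no annotated transcript (50% to 50.1%, 93.8% to 95% and 40% to 52.4%).

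Set on a scale per length, as CPM per kilobase of transcript, the ER genes covered a wide range that the persister state left largely in order. In parental cells 8 genes were above 100, from CANX (394 ± 11.2) through CALR (275 ± 4.35), HSP90B1 (213 ± 5.80), PDIA3 (213 ± 8.89) and P4HB (206 ± 5.02) to HSPA5 (126 ± 2.14), PDIA6 (101 ± 1.41) and SEC61B (100.4 ± 4.44; SD, n = 3). HSP90B1, PDIA3 and P4HB lay within their spread of one another, as did PDIA6 and SEC61B. In persister cells CANX (438 ± 7.08) and CALR (356 ± 14.7) were still first, and HSP90B1 (215 ± 2.71) came after PDIA3 (251 ± 7.78) and P4HB (241 ± 9.42). HSPA5 reached 182 ± 3.90. The genes with the largest relative increases were of low level: SEL1L went from 4.67 ± 0.213 to 9.20 ± 0.0311 and HERPUD1 from 13.8 ± 0.0719 to 25.96 ± 0.320. ERN1 (1.95 and 1.77), DERL3 (0.263 and 0.0921) and ERO1B (0.0217 and 0.0168) were last in both groups. These levels depend on the length used, and the length of CANX rests on the small part of its counts with an annotated transcript. With the longest coding transcript of each gene, 6 genes in place of 8 were above 100 in parental cells, and CANX was at 172 (the fourth in order), PDIA3 at 124 (the sixth), HERPUD1 at 7.997 and DERL3 at 0.167.

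**Figure D4:**
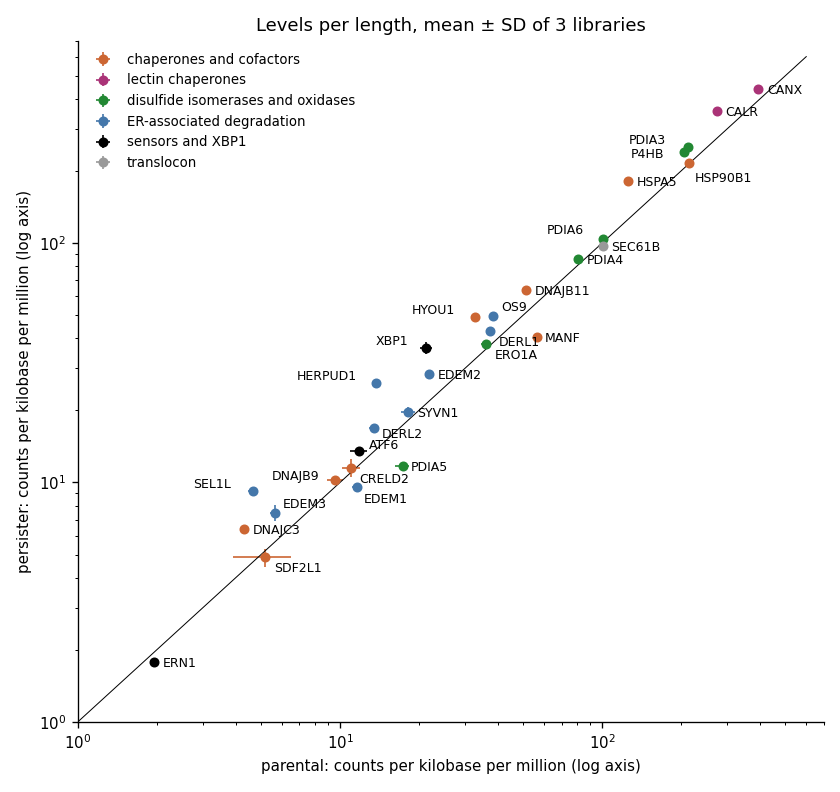
Level per length of 30 ER genes in parental (x) and persister (y) cells, in CPM per kilobase of transcript on log axes, as mean ± SD of 3 libraries, coloured by role; the line marks equal levels, and DERL3 and ERO1B, below 1 on both axes, are not drawn. SEL1L, HERPUD1 and XBP1 stand highest above the line and PDIA5 and MANF farthest below it.

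For comparison, related genes were counted in lists written from general knowledge. Earlier results of these data were known when the lists were written, so their counts are a description and not a test. The list for PERK and ATF4 output held 20 genes, of which 18 were higher and 0 lower in persister cells, with a median log2 fold change of 1.25. Its share called higher was 90%, beside 28.7% of all genes tested. Its summed level went from between 3631 and 3791 CPM to between 11030 and 11160 CPM. The amino acid transporter subunits SLC7A5 (2.50) and SLC3A2 (1.73), the serine synthesis enzyme PSAT1 (1.41) and the lipoprotein receptor VLDLR (2.04) had the smallest p-values. The paper had already named VLDLR among its top differential genes, in data that include these libraries. The 2 genes not called were EIF2AK3, the gene of PERK (log2 fold change 0.17, edgeR adjusted p = 0.0203), and CEBPB (-0.07, edgeR adjusted p = 0.308). Chosen after their values were seen, the mRNA of ATF4 itself had a log2 fold change of 0.21 and that of its target DDIT3 (CHOP) of 1.34, from 5.35 to 13.5 CPM. The ER folding and degradation genes stood at a median of 0.20 in the same fit, and the difference between the 2 lists was not tested. For ATF4 protein, which mRNA counts do not measure, the paper reported a higher level in persister than in parental PC9 cells by western blot.

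The ER lists gave medians between -0.08 and 0.15, each with members in both directions. Their shares called higher ran from 26.3% to 57.1% and those called lower from 9.52% to 40%. Over all genes tested these shares were 28.7% and 28.1%. Other UPR transducers and proteases had 8 higher and 3 lower of 14 tested, among them the gene of the ER calcium regulator WFS1 (0.73), the adaptor TRAF2 (0.53), the ATF6 relative ATF6B (-0.53) and the transcription factor CREB3L4 (-1.49). Other ER oxidoreductases had 9 higher and 2 lower of 21, with the disulfide reductase DNAJC10 (ERdj5; 0.95) and the sulfhydryl oxidase QSOX1 (0.85) higher. The 2 lower ones were ERP27 (-1.96), from 55.3 to 14.2 CPM, and AGR2, a secretory isomerase of mucus-producing epithelia (-5.78), from 17.0 to 0.304 CPM. Other ER chaperones and prolyl isomerases had 11 higher and 5 lower of 26, with CALU (0.70), PPIC (0.62), FKBP9 (0.48) and the collagen chaperone SERPINH1 (0.46) at the smallest p-values. Genes of N-glycan transfer and the calnexin cycle had 9 higher and 5 lower of 22. UGGT1, the glucosyltransferase that returns unfolded glycoproteins to calnexin, rose from 113 to 217 CPM (0.95), RPN2 (0.44) and MAGT1 (0.38) of the oligosaccharyltransferase rose less, and the mannosidase MAN1A1 fell (-0.69).

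Other ERAD genes divided as 17 higher and 11 lower of 44 tested (median -0.02), or 38.6% and 25%, beside 28.7% and 28.1% of all genes tested. Near the shares of all genes were also the retrieval and COPII genes (26.3% and 26.3%) and the cytosolic heat shock genes (33.3% and 25%) given below. UBE2J1, a ubiquitin-conjugating enzyme anchored in the ER membrane that serves HRD1, rose from 110.0 to 269 CPM (log2 fold change 1.29). The ATPase VCP (0.39), its cofactor NPLOC4 (0.47) and its membrane recruiter FAF2 (0.34), which pull substrates out, were also higher. Translocation and signal peptide genes had 7 higher and 10 lower of 25 (median -0.08), with TRAM2 (0.85), SRPRB (0.93), SEC61A2 (1.01) and SEC61A1 (0.48) at the smallest p-values. ER retrieval and COPII genes had 5 higher, with SEC16A (0.49) and TMED9 (0.59), and 5 lower, with the retrieval receptors KDELR1 (-0.44) and KDELR3 (-0.42), of 19 tested. Outside the ER, 8 cytosolic heat shock genes were higher and 6 lower of 24 (median 0.04), and the inducible HSP70 genes HSPA1A and HSPA1B, near-identical copies between which reads are divided with uncertainty, were at -0.66 and -0.68. Counts of lower genes moved in single alternatives: to 4 oxidoreductases and 8 retrieval genes with library size only, to 4 oxidoreductases without parental replicate 1, to 7 other ERAD genes without parental replicate 3 or persister replicate 1 or 2, and to 6 translocation genes without parental replicate 3.

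**Figure D5:**
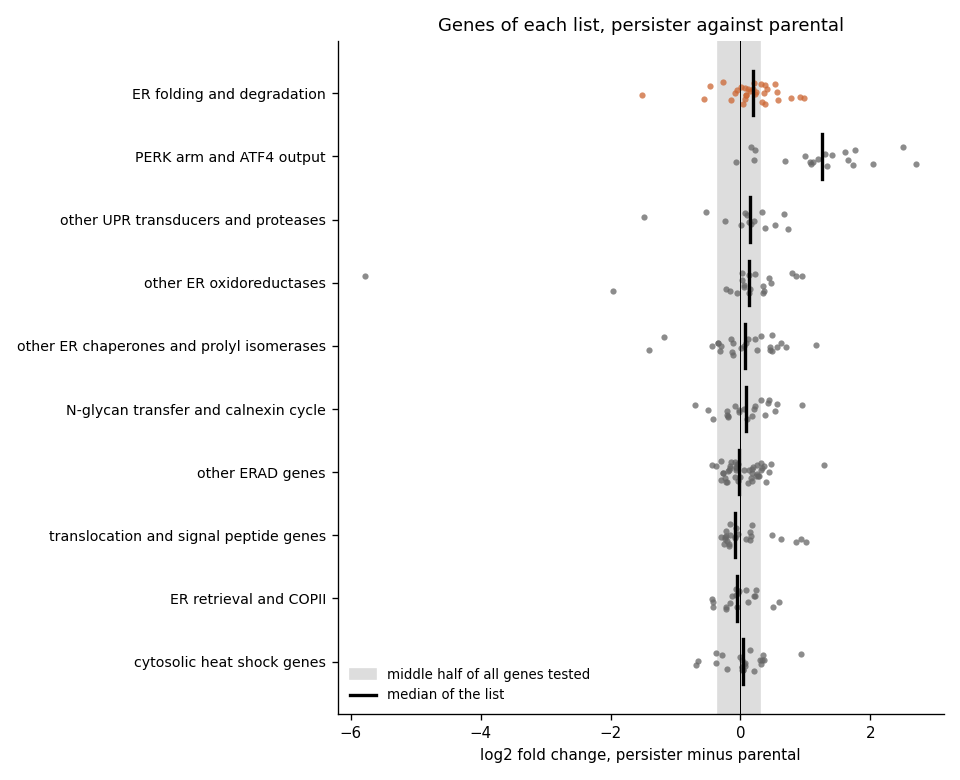
Log2 fold change, persister minus parental, of every tested gene (points, spread vertically at random) in the ER folding and degradation genes (orange) and in 9 related lists (grey), with each list's median (black bar) and a band from the 25th to the 75th percentile of all genes tested (-0.35 to 0.30). The median of the PERK and ATF4 list lies at 1.25, and those of the other lists lie within the band.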

How the data were processed

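RNA from 3 parental and 3 persister libraries of PC9 cells was sequenced after poly-A selection. Per the paper, the authors removed adaptors (bases2fastq), applied FASTP for quality and used Kallisto 0.46.1 to assign reads to Ensembl transcripts of GRCh38. The deposited values are estimated counts from Kallisto, whole and not normalized, per gene symbol and per transcript. Libraries of a second laboratory that the study analysed with these were not analysed here. Groups and replicate numbers came from the sample labels, and dose and culture numbers from the paper.

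Gene counts were tested with edgeR 4.0.16 in R 4.3.3: genes passing filterByExpr, TMM normalization, glmQLFit and glmQLFTest, and Benjamini-Hochberg adjustment over all genes tested, with a limit of 0.01. CPM use TMM-scaled library sizes. A standard error is the log2 fold change divided by the square root of F. Transcripts were tested likewise, and usage within genes with diffSpliceDGE. Coordinates and transcripts are from GENCODE 44 (GRCh38) and promoters from RefSeq (GRCh38.p14). Of 188753 transcripts 167067 matched, with 95.8% of transcript counts. Levels per length divide CPM by the mean transcript length of the gene. All libraries of a group differed by more than sampling noise (chi-square per degree of freedom 3.52 to 21.3). The upper limit given for a transcript without counts covers counting error only. Standard errors and SDs also take in the spread between libraries.

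The members and the lists were chosen with earlier results of these data known. Full values are given for members past the limit with an absolute log2 fold change above 0.5 and for the sensors, and up to 4 genes per related list by smallest p. Other members are given by shorter values, including some without a call. In simulated counts the gene test recovered 51% of genes changed by a log2 fold change of 0.5 (14621 genes run) and 98% of those changed by 1 (14594 genes run), with at most 2% of calls wrong. Transcripts were recovered in 9.5% and 97% of cases (55153 and 55204 run), and usage changes in 82.1% (10572 genes run). The simulations changed 200 genes or 200 transcripts, drawn at random from all those with enough counts and not from the ER genes. That is a far smaller share than the 56.8% of genes called in these data. They used a single fixed dispersion, not the dispersion estimated from these libraries. The recovered shares therefore do not give the share of changes missed in these data. Alternatives were DESeq2 1.42.0, limma 3.58.1 (voom), other normalizations, filters and limits, sums of transcript counts per gene, a replicate block and each library left out. Figures were drawn with matplotlib 3.10.9.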

Additional observations from a re-analysis of the deposited data

How the results depend on the processing

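Under 2 other normalizations, DESeq2 size factors, no filter or a CPM filter, DESeq2, limma voom, a replicate block, gene counts summed from transcripts, an adjusted p limit of 0.05 and each library left out, 15 to 18 of the ER genes were higher and 3 to 4 lower, and leaving out single libraries gave 15 to 17 higher and 3 to 4 lower. With a fold above 1.5 required as well, 3 were higher and 1 lower, since most steps are smaller than that. The sign of genes near 0 turned for HSP90B1 with upper quartile normalization (-0.0293), library size only (-0.0392) and without parental replicate 2 (range without single libraries -0.00662 to 0.0335), for PDIA6 with upper quartile normalization (-0.00464) and library size only (-0.0148), for SDF2L1 without parental replicate 2 (range -0.212 to 0.128) and for CRELD2 without persister replicate 3 (range -0.00982 to 0.135). The calls for CANX and ATF6 were also lost with upper quartile normalization (adjusted p = 0.0196 and 0.0199), and ATF6 with library size only (0.0198). With gene counts summed from annotated transcripts CANX had an adjusted p of 0.26 in edgeR and a log2 fold change of 0.146. That sum left out the 93.8% to 95% of the CANX gene count that is on no annotated transcript. The cause of the lost call was not tested. Member transcripts called went from 10 higher and 2 lower to 3 and 0 with the replicate block, and to 5 to 6 higher and 0 to 2 lower without single libraries. Usage calls went from 1 to 0 with transcripts above 1 CPM in 3 libraries and were 0 to 1 without single libraries. Whether the replicate numbers pair the samples was not settled. Deviations of same-numbered libraries correlated weakly, at 0.124, 0.0236 and 0.0215. Parental replicates 1 and 3 correlated best with the persister library of their own number, and parental replicate 2 with persister replicate 3 (0.0971). With the block 8671 genes were called in place of 8307, and it changed no call of an ER gene. The difference in the spliced share of XBP1, persister minus parental, was -8.02 percentage points, between -5.77 and -9.59 without single libraries, -0.487 over the whole gene count (-2.05 to 1.87 without single libraries, chosen after seeing the data, and turned without persister replicate 1 or parental replicate 2), and, in 2 alternatives also chosen after seeing the data, -0.448 with unplaced counts taken as unspliced and -26.2 with them taken as spliced. In promoters of tested genes only, ERSE-II was in 0.0884% and CARE in 2.03% of windows. Depth limits DERL3, ERO1B and SDF2L1.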
